A study of Mus musculus with 64 samples.

Results

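The ageing of skeletal muscle in mice with an inactivated Myc gene was followed by comparing muscle RNA at 20 months with muscle RNA at 5 months. The libraries were chosen by their labels alone: 5 muscle libraries labelled MycKO at 20 months (codes beginning K18S) and 4 labelled MycKO at 5 months (K5S). These 9 libraries are part of the 64 in the series, which also covers wild-type mice, liver and omental fat. Although 18 stands in the codes of the older animals, their titles and age labels give 20 months, which is used here.

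The MycKO mice (KO) were bred from 2 allele lines on B6.129 backgrounds, Gt(ROSA)26Sortm1(cre/ERT2)Tyj and, with B6.129S6, Myctm2Fwa. The first provides a Cre recombinase in all cell types that tamoxifen activates, and the second a Myc allele that Cre can cut out. The wild-type mice (WT) are labelled C57/B6, and 5 WT muscle libraries at 20 months and 6 at 5 months served as the second ageing series. Both genotypes were given tamoxifen in corn oil, at 75 mg/kg in 5 daily injections, after weaning and from a body weight of at least 15 g. KO and WT mice therefore differed in strain and in Cre as well as in Myc, and which muscle was taken is not given in the sources used here. Every animal was exposed to tamoxifen early in life, so no untreated ageing series was at hand.

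Myc is a transcription factor that pairs with Max to bind the sequence called the E-box, and it drives genes for ribosome production, metabolism and cell division. Proteins such as Mnt, Mxd1 and Mga compete with Myc for Max. Skeletal muscle consists mostly of multinucleated fibres that no longer divide, among which lie satellite cells, fibroblasts, vessels, and nerves with their Schwann cells. Ageing muscle is known for loss of mass, partial denervation and altered mitochondria.

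The table holds gene values called CPM, a read count scaled by the authors, and 17574492 to 20552665 reads on genes per KO library. Fast fibre genes dominated each KO library, as Myh4, the myosin of the fastest fibres, lay between 48320 and 62570 CPM. The library K18S48 (20 months) stood apart from the other old ones: its summed neutrophil markers reached 824 CPM against 4.15 to 11.7 CPM, and its summed erythroid markers 2220 CPM against 215 to 1117 CPM. Of the young KO libraries, K5S5116 and K5S5118 held the female transcript Xist (164 and 184 CPM) and no Y-chromosome transcripts, while every old library held Y-chromosome transcripts, so sex and age partly overlap. The column sums of the deposited CPM were 1154283 to 1271625 in young and 1076916 to 1157253 in old KO libraries. Setting all libraries to the same total moved the median log2 fold change of all genes from -0.02 to 0.10. Each library has its own code, but the labels do not state that the libraries of a group came from separate mice, so p-values measure only the spread between libraries.

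Myc itself came first, since it checks the labels. The young KO libraries held 10.8, 5.00, 7.80 and 17.1 CPM of Myc, and the old ones 10.2, 5.46, 9.62, 1.75 and 2.90 CPM. The ages overlapped, and the log2 difference of -0.77 gave p = 0.206 in an exact permutation test (two-sided), where the smallest p that 126 splits allow is 0.00794. In WT muscle Myc ran from 6.15 to 81.3 CPM at 5 months and from 4.97 to 13.1 CPM at 20 months. At both ages the KO range thus overlapped the WT range. Gene totals do not separate the exons, so they do not show how much of the remaining RNA lacks the deleted part. Pvt1, the long noncoding RNA gene beside Myc, stayed between 3.73 and 5.76 CPM in all 9 KO libraries (log2 fold change -0.08, SE 0.20).

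Of 14 tested genes of the Myc network, 2 rose with age in KO muscle and 1 fell. Among all genes tested, 3.88% were called higher and 2.07% lower, and each count of list members below is to be read against these shares. Mga, which pairs with Max and represses E-box genes, lay at 27.4, 36.1, 38.8 and 41.1 CPM at 5 months and at 73.4, 65.3, 96.2, 73.9 and 82.1 CPM at 20 months. Each old library was above each young one, and the log2 fold change was 1.11 (SE 0.16, limma adjusted p 0.0014). Mycbp2, a large ubiquitin ligase first found by its binding to Myc, rose from 66.7 ± 7.89 CPM (SD, n = 4) to 124 ± 3.15 CPM (n = 5), by 0.89 (limma adjusted p 0.00877). Max fell from 46.1 ± 1.99 CPM (n = 4) to 30.6 ± 5.76 CPM (n = 5), by 0.59 (limma adjusted p 0.0344). In WT muscle Mga, Mycbp2 and Max had log2 fold changes of 0.87, 0.44 and -0.59, of which that of Mycbp2 missed the threshold (limma adjusted p 0.0531). Mnt (log2 fold change -0.34) and Mxd1 (-0.25) were not called in KO muscle. The call of Max did not hold with libraries set to equal totals, with a Xist covariate or without the 2 Xist libraries. It was also lost after a correction for transcript GC content and length and without K5S4284.

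Promoters were searched for the E-box letters. CACGTG, which reads the same on both strands, was sought in 32851 RefSeq windows from 250 bases before to 50 bases after a transcript start (build GRCm38.p6). A gene can have several windows, some with a start inside the annotated gene, and was counted where any of its windows held the letters. They occurred in 11.9% of the 10123 tested genes with a window, in 13.4% of the genes that rose in KO ageing and in 7.28% of those that fell. Called genes named here with the letters in a window included Calr, Max and Bbc3, which fell, and Utrn, Utp20, Mtm1 and Eda2r, which rose. The stretch around the match is shown for Calr alone, the gene of an endoplasmic reticulum chaperone, whose window starts at the edge of the annotated gene. It lies at chr8:84847123-84847181 on the minus strand and is written 5′ to 3′ on the gene's strand, with CACGTG in capitals.
Calr: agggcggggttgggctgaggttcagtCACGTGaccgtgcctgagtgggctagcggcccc
The match begins 224 bases before the gene start. No window of the 29 extracellular matrix genes with one held CACGTG, against 5 of 18 for circadian clock genes and 11 of 51 for ribosome biogenesis genes. The FoxO letters GTAAACA, searched on both strands and counted apart from CACGTG even where matches overlap, occurred in 3.28% of tested genes and in 2 of 23 atrophy and FoxO target genes. A match is a description of letters and says nothing of binding.

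Across all genes, 757 of 12732 changed with age in KO muscle at a limma adjusted p under 0.05. Of these, 494 were higher at 20 months (3.88%) and 263 were lower (2.07%). The change exceeded 2-fold in 118 of them. Without regard to the test, the old libraries lay wholly above the young ones for 1164 genes (9.14%) and wholly below them for 892 (7.01%), and 701 of the 757 called genes were among these. In WT muscle the same fit called 1424 genes higher (11.2%) and 1007 lower (7.91%). The young WT group is larger (6 libraries against 4, with 5 old ones in each genotype), and the counts alone do not show a stronger response. With libraries set to equal totals the calls were 1057 higher and 160 lower in KO muscle, and 1761 and 788 in WT muscle. The KO count also depended on single libraries, as it fell to 147 without the young K5S4284 and was 689 without K18S48.

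Nearly all genes called in KO ageing had the same direction in WT ageing. The 2 ageing comparisons share no library, but 1 fit over all 20 muscle libraries set each gene's spread for both. The 2 sets of calls are thus not independent. Young WT libraries W5S5041 and W5S5042 also held Xist (167 and 157 CPM) and no Y-chromosome transcripts, while every old WT library held Y-chromosome transcripts. Sex and age thus partly overlap in both comparisons. Of the 757 KO genes, 750 had a WT fold change of the same sign and 539 were also called in WT, which is 71.2% of the KO list and 22.2% of the WT list. None was called in opposite directions. Across genes, which are not independent replicates, the log2 fold changes of the 2 genotypes had a Pearson r of 0.798. A test of the difference between KO and WT ageing called 0 of 12732 genes (0%) with limma and 413 had an unadjusted p under 0.05, with edgeR calling 0 and DESeq2 calling 1.

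**Figure D1:**
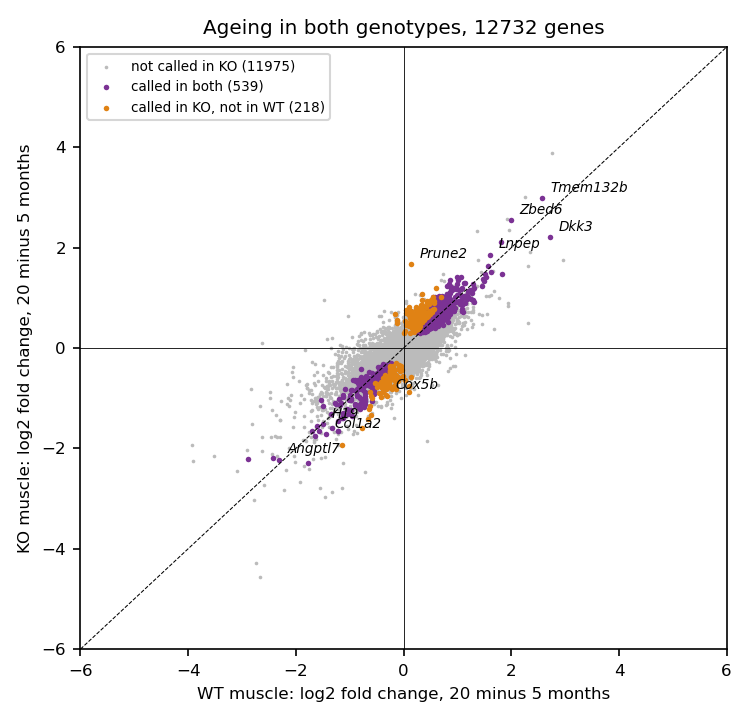
Log2 fold change from 5 to 20 months in WT muscle (x) and KO muscle (y) on the log2(CPM + 1) scale, 1 point per tested gene, with the dashed line marking equal change. The 539 genes called in both genotypes and the 218 called in KO but not in WT are coloured apart, and Prune2 (1.68 in KO, 0.14 in WT) lies far from the line.

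Prune2 was the leading riser that lay farthest from the WT pattern. Its 4 young KO libraries held 18.3, 12.1, 7.92 and 7.24 CPM and its old ones 31.2, 39.1, 35.8, 41.7 and 34.8 CPM, with no overlap. The KO log2 fold change was 1.68 (SE 0.32, limma adjusted p 0.00824). In WT muscle Prune2 ran from 9.13 to 46.6 CPM at 5 months and from 20.7 to 39.1 CPM at 20 months, a fold change of 0.14 (limma adjusted p 0.774). The difference between the genotypes was 1.54 with an unadjusted limma p of 0.0022 and did not pass adjustment over all genes (adjusted p 0.999).

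Tmem132b, a gene of a membrane protein family, showed the largest rise among called genes that average at least 5 CPM in KO muscle. It lies at chr5:125532418-125792583 (GRCm38.p6, RefSeq). The young libraries held 0.640, 3.99, 0.127 and 0.531 CPM and the old ones 13.4, 20.9, 10.7, 14.3 and 14.1 CPM. Every old library lay above every young one, and the means went from 1.32 ± 1.79 CPM (SD, n = 4) to 14.7 ± 3.75 CPM (n = 5). On the log2(CPM + 1) scale, which understates changes of low genes, the rise was 2.99 (SE 0.46, limma adjusted p 0.00231).

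Zbed6, a zinc finger repressor of Igf2 that arose from a DNA transposon, had the next largest rise. It lies at chr1:133655879-133660885, within an intron of Zc3h11a, so reads of the host transcript may be counted with it. Its young libraries held 1.64, 13.9, 5.52 and 5.58 CPM and the old ones 32.3, 31.9, 46.3, 36.9 and 36.5 CPM. The old libraries were all higher, with a log2 fold change of 2.55 (SE 0.44, limma adjusted p 0.00527). Igf2, its known target, was at 17.2, 14.2, 30.8 and 27.2 CPM in young and at 15.3, 15.6, 15.1, 18 and 20.0 CPM in old libraries. Those ranges overlapped, and Igf2 was not called (log2 fold change -0.34, limma adjusted p 0.28).

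Dkk3, a secreted protein of the Dickkopf family of Wnt modulators, rose strongly and from a higher level. Young libraries held 47.6, 15.2, 28.6 and 33.2 CPM and old ones 153, 92.9, 132, 163 and 155 CPM, with no overlap. The log2 fold change was 2.20 (SE 0.44, limma adjusted p 0.00946) in KO and 2.73 in WT muscle. Lnpep, the insulin-regulated aminopeptidase that travels in the same vesicles as the glucose transporter Glut4, went from 6.33, 9.89, 10.2 and 15.3 CPM to 45, 30.2, 42.1, 36.8 and 42.5 CPM. Its rise of 1.86 (SE 0.24, limma adjusted p 0.000457) again separated all old from all young libraries. The Glut4 gene Slc2a4 itself fell slightly, from 816 ± 61.1 CPM (n = 4) to 613 ± 42.8 CPM (n = 5), by 0.41 (limma adjusted p 0.0297). That call ended with libraries set to equal totals, after a correction for GC content and length, and without K5S4284.

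The other 7 of the 12 largest rises ran from 1.35 to 2.11 on the log2 scale, none with overlapping ages. Dach2, a transcription cofactor that responds to denervation, rose from 3.17 to 8.09 CPM at 5 months to 11.6 to 23 CPM at 20 months (1.48, limma adjusted p 0.00674). Eda2r, a receptor of the tumour necrosis factor family and a p53 target, rose from 22.1 to 42 CPM to 43.2 to 106 CPM (1.42, limma adjusted p 0.0207). Oip5os1, the long noncoding RNA also called Cyrano, went from 60.7 ± 18.4 CPM (n = 4) to 160 ± 38.1 CPM (n = 5). The remaining genes were D830031N03Rik, Rasd2, which encodes a small GTPase, Lmbrd2 and Eml5, the gene of a microtubule-associated protein. Cpn1, a subunit of carboxypeptidase N, and Syt9, a synaptotagmin, were low in CPM but rose by 1.52 and 1.48 and were called in all 9 fits without 1 KO library. Of the 12 largest rises, those of Rasd2 and Eda2r ended with a Xist covariate, and those of Rasd2, Eda2r and Dkk3 ended without the 2 Xist libraries.

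**Figure D2:**
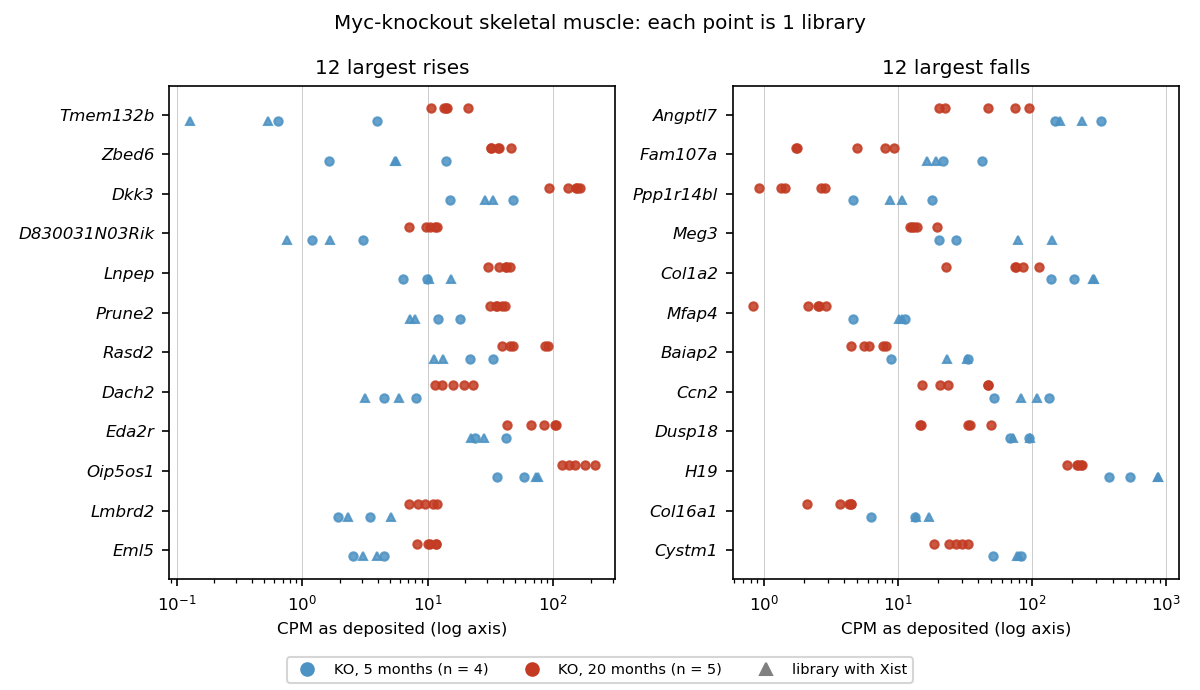
CPM as deposited (log axis) of the 12 genes with the largest rises (left) and falls (right) in KO muscle, 1 point per library, blue at 5 months and red at 20 months, with triangles for the 2 libraries with Xist. Within each gene the colours do not overlap, as the rule for naming them required, and the young values of Tmem132b (0.127 to 3.99 CPM) and Meg3 (20.4 to 142 CPM) spread widely.

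Among the largest falls were secreted and matrix genes and a pair of imprinted long noncoding RNAs. Angptl7, a secreted angiopoietin-like protein, fell from 326, 149, 236 and 161 CPM to 94.9, 75.4, 46.9, 20.3 and 22.7 CPM. No young library was as low as an old one, and the log2 fold change was -2.22 (SE 0.55, limma adjusted p 0.0248), a call that ended with a Xist covariate and without the Xist libraries. H19, the maternally expressed RNA beside Igf2 at chr7:142575530-142578146, was at 374, 543, 869 and 877 CPM in young and at 238, 184, 222, 218 and 234 CPM in old libraries. The old values were tightly grouped, and the fall was -1.52 (SE 0.30, limma adjusted p 0.00913). Meg3, the maternally expressed RNA of another imprinted domain, fell from 27.2, 20.4, 142 and 79.1 CPM to 14.0, 12.7, 13.2, 19.8 and 12.5 CPM (-1.75, SE 0.42, limma adjusted p 0.0207). Its 2 highest young values were those of the Xist libraries, and without them neither H19 nor Meg3 was called.

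The other falls included Fam107a, an actin-binding protein induced by stress hormones (16.6 to 42.5 CPM at 5 months, 1.75 to 9.32 CPM at 20 months). Baiap2, which encodes an actin-organising scaffold protein, went from 8.93 to 33.2 CPM to 4.46 to 8.18 CPM. Ccn2, the connective tissue growth factor gene, went from 52.6 to 134 CPM to 15.1 to 47.3 CPM. These 3 falls, of -2.20, -1.66 and -1.65, did not hold with a Xist covariate, without the Xist libraries or with a correction for GC content and length. Dusp18, the gene of a protein phosphatase, went from 69.0 to 97.5 CPM to 14.6 to 49.9 CPM, by -1.60 (SE 0.32, limma adjusted p 0.00946). It was called in all 9 fits without 1 KO library, but not under each of the other alternatives. Ppp1r14bl shares sequence with Ppp1r14b, so the assignment of its reads is uncertain. Cystm1 fell by -1.42 and by -0.67 in WT muscle (limma adjusted p 0.103).

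Some genes of the extracellular matrix fell in KO muscle. Of 44 tested members 6 fell, against 2.07% of all genes, none rose, and 39 had a fold change below 0, with a list median of -0.58 against -0.02 for all genes. Col1a2, a chain of type I collagen, was at 206, 139, 289 and 286 CPM at 5 months and at 86.1, 75.4, 22.8, 112 and 75.9 CPM at 20 months. The ages did not overlap, and the log2 fold change was -1.72 (SE 0.39, limma adjusted p 0.0172). Its partner chain Col1a1 fell by 1.55 (limma adjusted p 0.0439). Elastin, encoded by Eln, fell from 74.8, 62.1, 73.3 and 104 CPM to 27.8, 31.1, 34.8, 34.3 and 25.6 CPM. Each old library was below each young one (-1.31, SE 0.23, limma adjusted p 0.00554), and Eln was the 1 named fall that was called under each alternative.

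The basement membrane collagen genes Col4a1 and Col4a2, a pair that starts head to head on chromosome 8, both fell by 1.13. Sparc, a collagen-binding matrix protein, fell from 405 ± 74.6 CPM (n = 4) to 190 ± 30.5 CPM (n = 5), by 1.09 (limma adjusted p 0.00359). Outside the list, Mfap4, which belongs to the microfibrils around elastic fibres, and Col16a1, a minor collagen chain, were among the 12 largest falls (-1.66 and -1.46). In WT muscle 15 of the 44 matrix genes fell, against 7.91% of all genes, and none rose, with a median of -0.58. All 6 called in KO were also called in WT. Without the 2 Xist libraries 1 of the 44 was called in KO muscle and the median was -0.33, and without K5S4284 2 were called.

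Marker levels of cells between the fibres are given beside these genes. All summed levels are in CPM as deposited, whose column sums had medians of 1253808 in young and 1114972 in old KO libraries. The summed level of 10 fibroblast markers, Col1a1 among them, was 2535 to 3026 CPM in young and 1301 to 2329 CPM in old KO libraries, and 2 of the 10 fell, of which none was called without the Xist libraries or without K5S4284. The summed level of 8 tenocyte markers was 227 to 891 CPM and 144 to 383 CPM, with none called by limma, 5 lower at an unadjusted p under 0.05, none by edgeR and 2 lower by DESeq2. In bulk RNA, fewer cells of a type and less RNA per cell cannot be told apart, and the part of either in the matrix result was not tested.

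The summed Schwann cell markers were lower in old KO muscle. Their summed level was 298, 297, 358 and 228 CPM at 5 months and 151, 148, 148, 148 and 134 CPM at 20 months, so all 5 old libraries lay in a narrow band below every young one. Pmp22, a protein of peripheral myelin, went from 74.8 to 91.0 CPM to 39.1 to 44.7 CPM, a fall by 1.01 (limma adjusted p 0.00969). Prx, which encodes periaxin, fell by 0.96 (limma adjusted p 0.0383). Of the 10 markers 3 fell, and 7 had old values wholly below the young ones, against 7.01% of all genes. The calls were 1 with a Xist covariate or without K5S4284, and 2 without the Xist libraries or after the correction for GC content and length. Mbp (-0.90), Mag (-0.66) and Sox10 (-0.50) missed the threshold, and S100b (-0.08) and Cdh19 (0.08) were near 0. In WT muscle Pmp22 and Prx also fell, by 0.99 and 0.87.

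**Figure D3:**
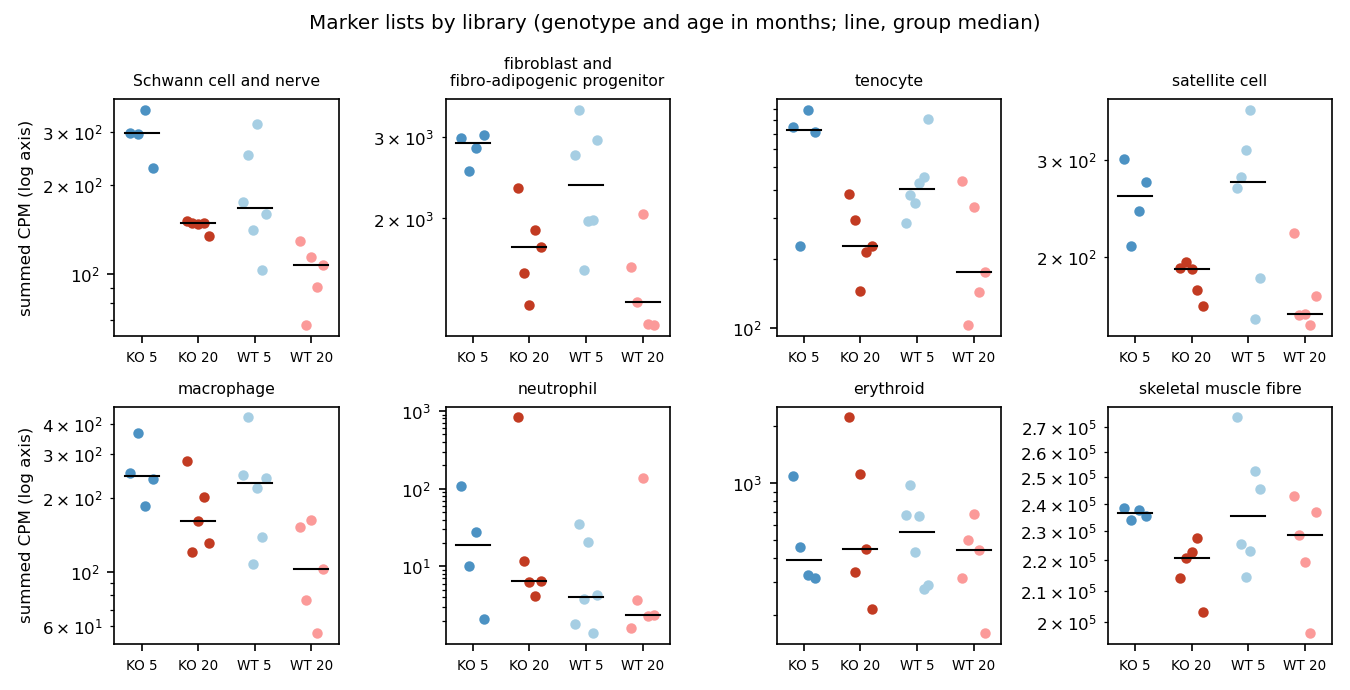
Summed CPM (log axis) of marker lists in each muscle library by genotype and age in months, with a line at each group's median. The Schwann cell panel shows the 5 old KO libraries at 134 to 151 CPM below the young ones, and the neutrophil and erythroid panels show K18S48 at 824 and 2220 CPM above the other old KO libraries.

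Satellite cell markers summed to 210 to 301 CPM in young and 163 to 196 CPM in old KO libraries, also without overlap, but none of the 7 tested was called with limma, edgeR or DESeq2 (1 lower at an unadjusted p under 0.05). Pax7, the transcription factor that defines these cells, was low throughout, between 0.569 and 3.49 CPM (log2 fold change 0.53, limma adjusted p 0.261). The summed fibre markers were 234163 to 238405 CPM in young and 203231 to 227545 CPM in old libraries. These sums are in CPM as deposited and were not set to equal totals, so their difference follows the column sums too. None of the 12 was called with limma, with 1 higher and none lower at an unadjusted p under 0.05. With libraries set to equal totals 1 was called higher and none lower, and edgeR and DESeq2 each called 1 higher. Summed macrophage markers overlapped between the ages (185 to 365 and 120 to 282 CPM). All 9 tested had a fold change below 0, with a median of -0.60. Of these 0 were called with limma or edgeR, 1 lower with DESeq2 and 4 lower at an unadjusted p under 0.05. With a Xist covariate 1 was called lower. In WT muscle 6 fell, against 7.91% of all genes.

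Several genes of the respiratory chain fell in KO muscle. Of 77 nuclear genes of oxidative phosphorylation 8 fell, against 2.07% of all genes, none rose, and 75 had a fold change below 0. Their median was -0.31 against -0.02 for all genes, and 34 of 77 had old values wholly below the young ones, against 7.01% of all genes. Cox5b, a subunit of cytochrome c oxidase, was at 518, 409, 394 and 397 CPM in young and at 224, 191, 197, 223 and 278 CPM in old libraries. The groups were far apart, with a log2 fold change of -0.95 (SE 0.24, limma adjusted p 0.0248). The other called members were Cox6a2, Cox7a1 and Cox7c of the same complex, Ndufa3, Ndufa5 and Ndufa13 of complex I and Atp5g1 of the ATP synthase, with falls of 0.55 to 0.88. The 13 protein genes of the mitochondrial genome are listed at 0 in every library and could not be examined.

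In WT muscle 0 of these 77 genes were called with limma and their median was 0.02. At an unadjusted p under 0.05, 4 were higher and 2 lower there, while edgeR called 0 higher and 0 lower and DESeq2 0 and 2. The difference between the genotypes had an unadjusted p under 0.05 for 9 of 77 and passed adjustment for none. For Cox5b it was -0.64 with an unadjusted limma p of 0.056. The median of the list in KO muscle was -0.17 with libraries set to equal totals and -0.16 after a correction for transcript GC content and length, and with those settings 3 and 6 members were called lower. With a Xist covariate, and without K5S4284, the library with the highest Cox5b, none was called, at medians of -0.20 and -0.25.

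Few ribosomal protein genes were called. Of 77 tested 3 fell, against 2.07% of all genes, none rose, 76 had a fold change below 0 and the median was -0.32. In 35 of them all old libraries lay below all young ones, against 7.01% of genes in general. Rps29, of the small ribosomal subunit, was at 193, 181, 141 and 117 CPM in young and at 80.8, 52.9, 65.8, 59.6 and 75.1 CPM in old libraries. It did not overlap and fell by 1.22 (SE 0.31, limma adjusted p 0.0284), as did Rps28 by 1.22 (0.028) and Rps21 by 0.74 (0.0243). These genes have many processed copies in the genome, so the assignment of their reads is uncertain. Rpl4, of the large subunit, was not called (log2 fold change 0.02, 618 to 700 CPM and 581 to 733 CPM). In WT muscle 1 of the 77 fell and the median was -0.04. With a Xist covariate, and without K5S4284, none was called in KO muscle, and with libraries set to equal totals the median was -0.17. After the correction for GC content and length it was -0.12, with 64 of 77 below 0.

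Genes that rose in KO ageing had long, AT-rich transcripts, and genes that fell had shorter, GC-rich ones. The median length of the longest transcript was 6244 bases among called higher genes, 2895 bases among called lower genes and 3451 bases among all tested genes with a value. Median GC content was 44.3%, 56.4% and 50.9% in the same order. In the tercile of genes with the lowest GC content 375 rose and 16 fell, whereas in the tercile with the highest 21 rose and 174 fell. By length, 28 rose and 118 fell in the shortest tercile, and 339 rose and 52 fell in the longest. Across genes, Pearson's r of the KO log2 fold change was 0.275 with log2 length and -0.346 with GC content, and in WT ageing 0.073 and -0.267. After each library was corrected for both properties, a step chosen after these values were seen, 225 genes were called (145 higher, 80 lower), 182 of them among the 757.

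**Figure D4:**
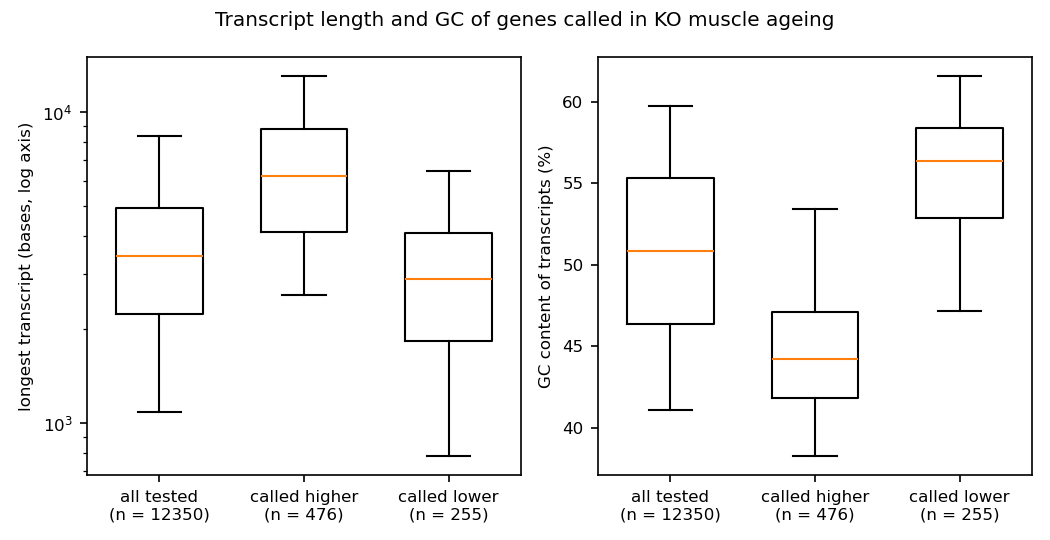
Length of the longest transcript (log axis, bases) and GC content of transcripts (%) for all tested genes and for genes called higher or lower in KO ageing; boxes show quartiles and median, whiskers the 5th and 95th percentiles. The called higher genes sit at a median of 6244 bases and 44.3% GC and the called lower genes at 2895 bases and 56.4%.

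Some slow fibre genes varied widely among the young libraries, whereas the summed fast fibre genes kept to 193889 to 200312 CPM there. Of 15 fast fibre genes 0 were called with limma, edgeR or DESeq2 (2 lower at an unadjusted p under 0.05), with a median of -0.22. The slow fibre list had a median of -1.58 and 13 of 15 members below 0, yet 0 were called with limma or edgeR, 2 were lower with DESeq2 and 7 were lower at an unadjusted p under 0.05. Myh7, the slow myosin, was at 110, 1743, 379 and 406 CPM in young and at 282, 56.0, 32.7, 61.2 and 19 CPM in old libraries. The ages overlapped through K18S48, and the log2 fold change of -2.84 had an SE of 1.38 (limma adjusted p 0.197). Myl2, the slow regulatory light chain, also overlapped between the ages (-1.68, SE 1.03). In WT muscle 4 slow genes fell, and Myh7 at 5 months ran from 5.25 to 1506 CPM. Of 11 developmental and cardiac sarcomere genes 0 were called with limma, 1 lower with edgeR, 2 lower with DESeq2 and 2 lower at an unadjusted p under 0.05.

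Among 25 genes of denervation and the neuromuscular junction, 2 rose and 1 fell, where 3.88% and 2.07% of all genes did. Beside Dach2, Utrn, the gene of the dystrophin relative utrophin, rose from 40.8, 41.5, 49.3 and 46.5 CPM to 57.5, 71.6, 73.5, 68.6 and 57.4 CPM (0.55, SE 0.16, limma adjusted p 0.0455). Ncam1, a neural adhesion molecule that denervated fibres also make, went the other way, from 9.38 to 13.6 CPM to 4.72 to 8.69 CPM (-0.81, limma adjusted p 0.0255). The acetylcholine receptor subunit genes Chrna1 (-0.30) and Chrnb1 (-0.03) were not called. The calls of Utrn and Ncam1 ended with a Xist covariate, whereas Dach2 was called under each alternative.

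In the calcium handling list 2 of 28 genes rose, against 3.88% of all genes, and none fell. Cacna2d1, an auxiliary subunit of the voltage-gated calcium channel of the fibre membrane, went from 359, 372, 478 and 452 CPM to 616, 627, 597, 638 and 684 CPM. All old libraries were above all young ones (0.61, SE 0.12, limma adjusted p 0.0081). Mtm1, the gene of the lipid phosphatase myotubularin, rose by 0.41. With libraries set to equal totals 4 genes of the list rose, where 1057 of all 12732 genes did. With a Xist covariate or without the Xist libraries 1 of the list rose, and after the correction for GC content and length none was called. The pore-forming subunit gene Cacna1s (-0.07) and the release channel gene Ryr1 (-0.11) were not called. Of 20 myogenic genes Mef2a, a transcription factor of muscle differentiation, rose by 0.56 (limma adjusted p 0.0276) and none fell. That call ended with a Xist covariate, without the Xist libraries, after the correction for GC content and length and without K5S4284.

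Glucocorticoid target genes had a fold change below 0 in 18 of 22 members, with a wide spread between libraries. Of these 0 were called with limma or edgeR in KO muscle, 2 lower with DESeq2, and 1 higher and 8 lower at an unadjusted p under 0.05, while 15 fell in WT muscle. Of all genes, 7.91% fell in WT muscle. The medians of the list were -0.90 in KO and -1.50 in WT muscle. Fkbp5, a chaperone induced by glucocorticoids, was at 474, 512, 303 and 302 CPM in young and at 262, 321, 409, 118 and 143 CPM in old libraries, so K18S61 and K18S62 overlapped the young ones. Its log2 fold change was -0.77 (SE 0.56, limma adjusted p 0.388). Whether the 2 genotypes differed in this list was tested gene by gene, and 1 of 22 had an unadjusted p under 0.05.

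The atrophy and FoxO list had 1 member called, Sesn3, a stress-induced sestrin, which rose from 1.56 to 2.54 CPM to 4.30 to 7.20 CPM (1.06, SE 0.23, limma adjusted p 0.0136), a call that ended with a Xist covariate and without K5S4284. The muscle ubiquitin ligase gene Trim63 was at 5425, 5463, 4248 and 5380 CPM in young and at 3598, 2548, 5707, 1228 and 720 CPM in old libraries. K18S62 was thus above all young libraries and K18S64 far below them, and the fold change of -1.24 was not called (limma adjusted p 0.256). Fbxo32, the companion ligase gene, was near 0 (0.05, SE 0.40). In WT muscle 2 genes of this list rose and 10 fell, against 1 and 0 of 31 in KO muscle. Of all genes, 11.2% rose and 7.91% fell in WT muscle, and 3.88% and 2.07% in KO muscle. The difference between the genotypes had an unadjusted p under 0.05 for 1 gene.

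Of 24 immediate early genes 1 fell and 23 had a fold change below 0. Jund, a subunit of the AP-1 transcription factor, went from 175, 126, 157 and 203 CPM to 89.7, 72.4, 83.9, 57.0 and 65.4 CPM (-1.15, SE 0.27, limma adjusted p 0.0201), a call that ended with a Xist covariate and without the Xist libraries. Fos was at 97.6, 32.6, 89.9 and 280 CPM and at 72.1, 5.14, 9.02, 5.13 and 9.02 CPM, where only K18S48 overlapped the young libraries. Its fold change of -2.97 had an SE of 1.07 (limma adjusted p 0.0957). Hspa1a, an inducible heat shock protein, ran from 45.8 to 1789 CPM among young and from 12.9 to 92.1 CPM among old libraries (-4.29, SE 1.62, limma adjusted p 0.11). Of 36 genes of the heat shock and unfolded protein response, Calr (-0.37) and Sdf2l1 (-0.82) fell and none rose. Neither was called with a Xist covariate, without the Xist libraries, after the correction for GC content and length or without K5S4284. Clock, a core clock transcription factor, rose by 0.58 and Csnk1e, a kinase of the clock proteins, fell by 0.71 among 22 clock genes. The ages overlapped for both clock genes, which were called in 1 and 3 of the 9 fits without 1 KO library. Both calls ended with a Xist covariate, without the Xist libraries, after the correction for GC content and length and without K5S4284. The time of day of tissue collection is not given in the sources used here.

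Few genes of growth and fuel use were called. In the growth hormone, insulin and IGF list 3 of 22 fell (H19, Slc2a4 and Igfbp6) and none rose. Igfbp6, a secreted IGF-binding protein, went from 117, 71.3, 110 and 121 CPM to 73.0, 48, 33.4, 43.6 and 43.8 CPM (-1.12, SE 0.25, limma adjusted p 0.0175). Young K5S4285 and old K18S48 met at 71.3 and 73.0 CPM, and the call ended with a Xist covariate and without the Xist libraries. Igf1 (0.26) was not called. Among 20 myokine and secreted factor genes 1 rose and 2 fell. Myostatin, the growth inhibitor encoded by Mstn, was at 103 to 174 CPM in young and 23.8 to 89.9 CPM in old libraries without overlap, but missed the threshold (-1.23, SE 0.52, limma adjusted p 0.144). Among 28 glycolytic genes 1 fell (Slc2a4), and among 35 genes of fatty acid oxidation 1 fell (Ucp2, -1.09, which encodes a mitochondrial carrier of the uncoupling protein family). With libraries set to equal totals, 2 glycolytic genes rose and none fell, and 5 fatty acid genes rose and 1 fell. In that setting 1057 of all 12732 genes rose and 160 fell. The Ucp2 call ended with edgeR, with a Xist covariate, without the Xist libraries, after the correction for GC content and length and without K5S4284. Cpt1b, which controls fatty acid entry into mitochondria, was not called (-0.00, SE 0.11).

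**Figure D5:**
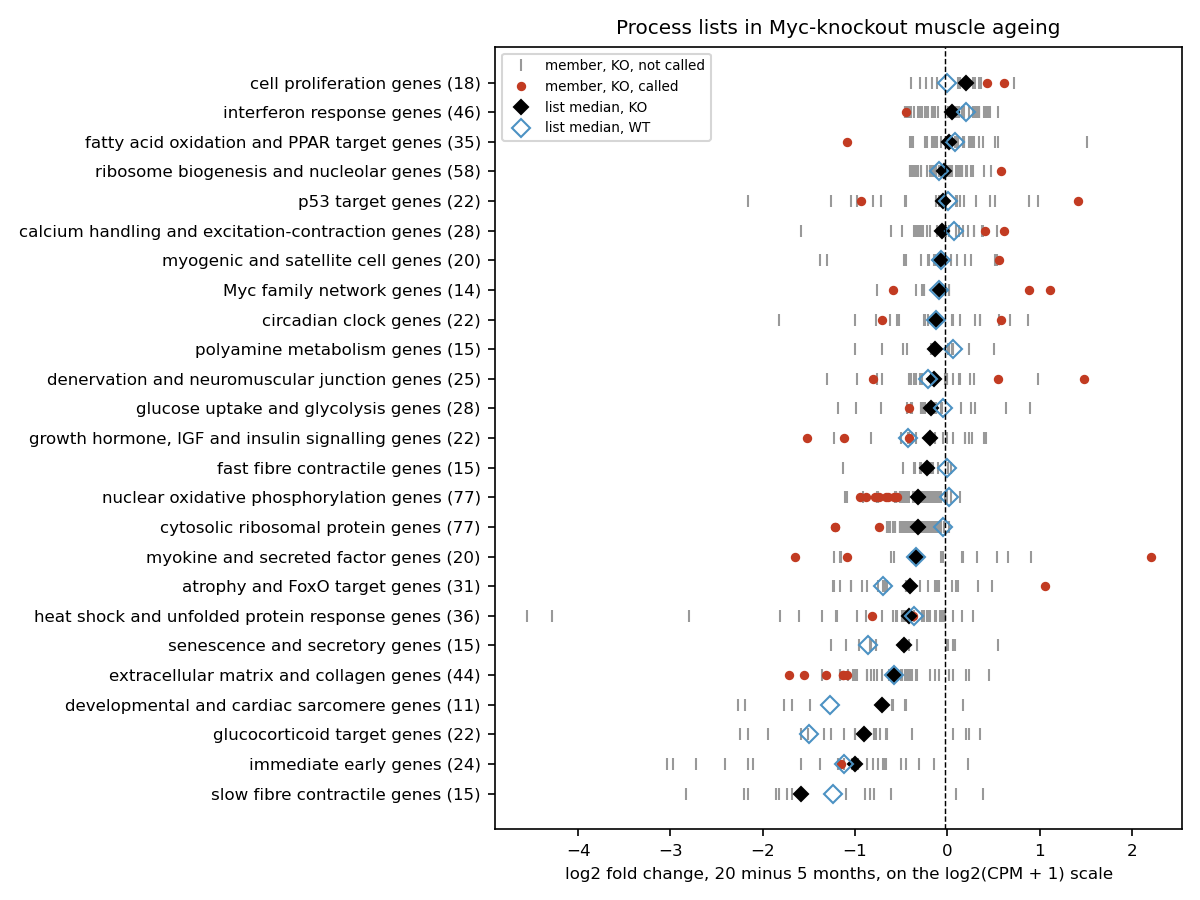
Log2 fold change from 5 to 20 months of each tested member of the process lists in KO muscle (ticks, red points where called), with list medians in KO (filled diamonds) and WT (open diamonds); the number of members is in brackets and the dashed line is the KO median of all genes. Respiratory chain and ribosomal protein genes lie to the left in KO (medians -0.31 and -0.32) and near 0 in WT, while slow fibre genes spread widely.

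Lists tied to cell stress, division and the known targets of Myc held few calls. Of 22 p53 targets Eda2r rose and Bbc3, which encodes the pro-apoptotic protein Puma, fell (-0.94, limma adjusted p 0.0478). Bbc3 was called in 0 of 9 fits without 1 KO library, and neither gene was called with a Xist covariate or after the correction for GC content and length. Cdkn1a, the p53-induced cell cycle inhibitor gene, was at 667, 273, 500 and 550 CPM in young and at 229, 329, 465, 94.6 and 90.1 CPM in old libraries. Those ranges overlapped (-1.26, SE 0.76, limma adjusted p 0.294). Of 15 senescence and secretory genes 0 were called with limma, edgeR or DESeq2, with 1 higher and 3 lower at an unadjusted p under 0.05. Of 46 interferon response genes Tapbp, a chaperone of antigen loading, fell by 0.45 and none rose. The Tapbp call ended with libraries set to equal totals, after the correction for GC content and length, without K5S4284 and without K18S48.

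Of 18 proliferation genes Mcm4, a subunit of the replicative helicase, rose by 0.61 and Rrm1, of ribonucleotide reductase, by 0.43. The division markers Mki67 and Top2a were at 36.9 and 12.9 CPM in K18S48 and at no more than 2.73 and 1.27 CPM in the other old libraries. Without K18S48 neither Mcm4 nor Rrm1 was called. Of 58 ribosome biogenesis genes Utp20, a nucleolar processing factor, rose from 16.9 to 19.3 CPM to 23.5 to 39.6 CPM (0.58, SE 0.14, limma adjusted p 0.0238) and none fell. With libraries set to equal totals 4 genes of the list rose, where 1057 of all 12732 genes did. None of the list was called with a Xist covariate, without the Xist libraries, after the correction for GC content and length or without K5S4284. The nucleolar genes Ncl (0.02) and Npm1 (-0.13) were not called. Of 15 polyamine genes 0 were called with limma, edgeR or DESeq2 (1 lower at an unadjusted p under 0.05). Odc1, a classical Myc target that makes the first polyamine, was at 792, 860, 283 and 348 CPM and at 582, 585, 733, 379 and 363 CPM. The young values of Odc1 fell into a high pair and a low pair, the low pair being the Xist libraries.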

How the data were processed

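Poly(A) RNA was captured on poly-T beads for strand-specific Illumina libraries, per the labels' protocols. The deposited table holds a scaled read signal that the authors called CPM, per the file headers. In each library its values were whole multiples of 1 read (100% within a tolerance of 0.1), so reads were recovered by division (15449409 to 22358587 reads per muscle library). The aligner and counting settings are not given in the sources used here. GRCm38.p6 and mm10 are named in the submitters' processing notes. Gene IDs without a symbol took at most 0.127% of reads.

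Genes above 1 CPM in at least 4 of the 9 KO libraries (12732) entered limma 3.58.1 under R 4.3.3, on the log2(CPM + 1) scale, with trended moderated variances, 4 group means over 20 muscle libraries and Benjamini-Hochberg adjustment. Alternatives were pseudocounts of 0.1 and 5, other filters, rescaled libraries, TMM factors, edgeR 4.0.16 and DESeq2 1.42.0 on recovered reads, KO libraries alone, a Xist covariate, no Xist libraries, no variance trend, each library left out, and a loess correction (span 0.5) for GC content and length of GENCODE transcripts, added after seeing the data. The fit was tested on simulated reads. Libraries of a group differed by more than sampling noise.

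The comparison, the 26 process lists and the 18 marker lists were chosen with earlier results of these data known. Named genes are Myc and Pvt1, the 12 largest rises and falls among called genes that average 5 CPM or more and have ages that do not overlap, the first 2 tested and up to 4 called members of each list, and up to 10 genes called in each fit without 1 KO library; others were chosen after their values were seen. Mycn, Mycl and Mxd3 were below the filter. Values of 1 marker gene are not reported here.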

Additional observations from a re-analysis of the deposited data

Results flagged for a closer look

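In groups of 4 or 5 libraries, the gap between the extreme library and its neighbour was compared with the group's range for each named gene. Of 208 gene and age pairs 17 stood out (8.17%). The cut-off gives about 1 in 20 for independent values with a normal spread. CPM of genes chosen partly from these same libraries need not behave so, and the share is only a description.

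The old library K18S48 accounted for 6. It was the highest for Myh7 (282 CPM, next 61.2), Fos (72.1, next 9.02), Mki67 (36.9, next 2.73), Top2a (12.9, next 1.27) and Hspa1a (92.1, next 24.3), and the lowest for Cpt2 (101, next 130). The part that its neutrophil and erythroid markers have in these values was not tested. Without it 689 genes were called in KO ageing, 599 of them among the 757.

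The young library K5S4285 was the highest for Tmem132b (3.99 CPM, next 0.640) and Mstn (174, next 113), and the lowest for Mfap4 (4.66, next 10.2) and Cystm1 (51.5, next 78.1). K5S4284 was the highest for Cox5b (518, next 409), Ndufa3 (224, next 178) and Cox7a1 (353, next 268), 3 of the genes whose falls are reported above. K5S5116 was the lowest for Trim63 (4248, next 5380) and Ifit1 (1.65, next 2.52), K5S5118 the highest for Bbc3 (11.4, next 7.08) and K18S63 the highest old library for Meg3 (19.8, next 14.0).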

How the results depend on the processing

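No paired analysis was possible because the labels give no replicate numbers shared between the ages. The KO count of 757 called genes (494 higher, 263 lower) was 744 to 762 with other pseudocounts or a stricter filter, 693 without a variance trend, 882 with TMM factors and 854 with edgeR. It was 461 without the filter, 1217 with libraries set to equal totals (1057 higher, 160 lower), 1432 with DESeq2, 1778 with KO libraries alone (937 higher, 841 lower), 199 with a Xist covariate, 310 without the Xist libraries and 225 after the GC and length correction. Leaving out 1 KO library gave 147 (without K5S4284) to 689 (without K18S48), with 433 or fewer without K5S4285, K5S5116, K5S5118, K18S61, K18S63 or K18S64 in turn, and 130 genes (103 higher, 27 lower) were called each time. Leaving out the WT library W5S5277 gave 1327. The WT count of 2431 was 949 without the Xist libraries and 1186 (without W18S42) to 3761 (without W5S5277) without 1 library; it was 1271 without W18S66, 1554 without W5S5042 and 1575 without W5S5007. WT calls were split into 1202 higher and 1254 lower with edgeR, 1424 and 1614 with DESeq2, 933 and 994 after the GC and length correction, and 1761 and 788 with libraries set to equal totals. The test between the genotypes called 1 gene with DESeq2 and 1 without the Xist libraries, each time C130046K22Rik (adjusted p 0.000481 and 0.00315), and 0 in every fit without 1 library. The cause of the shifts in these counts was not tested. The Myc difference stayed below 0, from -0.47 to -1.03, and never passed the exact test. Of 59 named called genes, 57 stayed called with edgeR, 59 with DESeq2, 53 with libraries set to equal totals, 23 with a Xist covariate, 24 without the Xist libraries and 20 without K5S4284; none changed direction, and 14 (13 higher, 1 lower) were called under each alternative that gave a value.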

Other observations

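H19 and Meg3, named above among the largest falls, are both imprinted, so 20 imprinted genes were looked up after their values were seen. Of the 18 that were tested, H19 and Meg3 fell in KO muscle and none rose, with a median log2 fold change of -0.03 over the list against -0.02 for all genes. Rian, a noncoding RNA of the same cluster as Meg3, averaged 33.7 CPM at 5 months and 8.84 CPM at 20 months (-1.10, limma adjusted p 0.242). Cdkn1c, an imprinted cell cycle inhibitor gene, averaged 35.8 and 23.2 CPM (-0.58, limma adjusted p 0.141). Peg3 was not called in KO muscle (-0.07) and fell in WT muscle (-1.07, limma adjusted p 0.0438), and the difference between the genotypes had an unadjusted p of 0.0788.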
